A study of Homo sapiens with 2 samples.

Results

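The EGF receptors and their ligands were examined as 10 genes of the 57820 in the table. They are the 4 receptors EGFR, ERBB2, ERBB3 and ERBB4, and the 6 ligands AREG, EREG, TGFA, HBEGF, BTC and NRG1. They were taken by gene symbol, by a rule that uses no measured value, although the family was picked with earlier results of these data known. Each of the 10 matched 1 row. RNA had been sequenced from HCT116, a human colorectal carcinoma line, in 1 library of cells with wild-type CREB1 and 1 library of a CREB1 knockout clone derived from that line by transfection with a Cas9 nickase plasmid carrying guide RNAs. CREB1 encodes a DNA-binding factor that acts at cAMP response elements. Both cultures were kept in DMEM with fetal bovine serum and antibiotics, with no further treatment named. The knockout group is 1 clone, so the loss of CREB1 and other differences of that clone cannot be told apart, and no value here has a replicate check.

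The EGF receptors are tyrosine kinases of the cell surface that act as pairs. EGFR binds amphiregulin (AREG), epiregulin (EREG), transforming growth factor alpha (TGFA), heparin-binding EGF-like growth factor (HBEGF) and betacellulin (BTC). Neuregulin 1 (NRG1) binds ERBB3 and ERBB4, ERBB2 has no known ligand of its own and serves as a partner of the others, and the kinase of ERBB3 is weak. The ligands are made as membrane-anchored precursors and are released by sheddases, and in colorectal cancer AREG and EREG are known as ligands that many tumours express at a high level.

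The deposited expected counts, which are estimated reads per gene, gave totals of 34511074 for the wild-type library and 31178309 for the library labelled knockout. CREB1 itself had 614 and 499 counts, and a gene-level count does not check the genotype. Levels are in CPM, counts per 1000000 reads scaled with the TMM method, and each log2 ratio of knockout over wild-type has a 95% interval that covers counting error only. Genes with a mean of at least 1 CPM were treated as expressed. Of 12 colorectal epithelial markers, 7 were expressed, 1 above 0 and 6 below, beside 6600 above and 6286 below over all expressed genes. CDX1 and CEACAM5 had 0 counts in both libraries. The summed level of the 12 markers was 4091 CPM in wild-type and 3554 CPM in knockout cells. EPCAM had 3129 and 2929 counts, and the epithelial factor ELF3 was 2.22-fold lower. The part of these markers in the ratios of the members was not tested. Of the blood and endothelial markers, PTPRC, CD3E, CDH5 and HBB had 0 counts in both libraries, and the summed level of the 8 that were matched was 1.78 CPM in wild-type and 1.22 CPM in knockout cells. The 8 fibroblast markers summed to 2.85 and 5.03 CPM, with 4 of them at 0 in each library (COL1A2, LUM and FAP in both) and COL3A1 at 7 and 69 counts.

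In both libraries HCT116 cells held the RNA of 3 receptors and of 5 ligands, with AREG and EREG far above the other ligands. Betacellulin was the expressed member that differed most, at 3.31-fold higher in the knockout library. EREG and EGFR were 1.28-fold and 1.26-fold higher, AREG was 1.12-fold lower, and ERBB3 and TGFA were nearly alike. ERBB4 and NRG1 were barely detected in either library. BTC was the 1 member of 8 expressed that was called higher, meaning at least 2-fold with an interval that excludes 0 (no difference), and none was called lower. Over all 12886 expressed genes, 2.92% were called by this rule, 1.28% higher (165 genes) and 1.64% lower (211). Scaling to the library totals instead gave 201 higher and 167 lower.

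Among the receptors, ERBB2 (ENSG00000141736.9, chromosome 17) had 1501 counts in wild-type and 1611 in knockout cells, or 44.6 and 50.4 CPM. EGFR (ENSG00000146648.11, chromosome 7) had 1103 and 1320 counts, or 32.8 and 41.3 CPM. ERBB3 (ENSG00000065361.10, chromosome 12) had 709 and 671 counts, which came to the nearly equal levels of 21.1 and 21.0 CPM. The knockout library was thus above the wild-type one for EGFR and ERBB2 and level with it for ERBB3. The log2 ratio was 0.33 for EGFR (interval 0.22 to 0.45), 0.18 for ERBB2 (0.073 to 0.28) and -0.0060 for ERBB3 (-0.16 to 0.15), the last including 0. ERBB4 (ENSG00000178568.9, chromosome 2), a receptor best known from heart and nervous tissue, had 3 counts in wild-type and 0 in knockout cells, both at or under the limit of 3 counts that a count of 0 allows, so no ratio is given.

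The ratios of EGFR and ERBB2 were of a size common among expressed genes, and that of ERBB3 was small. A ratio as far from 0 as that of EGFR or farther was found for 29.8% of expressed genes, as far as that of ERBB2 for 55.6% and of ERBB3 for 98.3%. Summed over the 4 receptors, the counts came to 98.5 CPM in wild-type and 112.6 CPM in knockout cells, a log2 ratio of 0.19 (0.12 to 0.26). Longer transcripts weigh more in this sum. The ratio of EGFR to ERBB3 counts within a library does not depend on scaling between libraries. It was 1.56 in wild-type and 1.97 in knockout cells, 1.26 times as high (1.11 to 1.45). For EGFR over ERBB2 it was 0.735 and 0.819, which is 1.12 times as high (1.001 to 1.24).

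Levels of different genes can be set side by side only after division by transcript length. Per length of all annotated exons, and scaled to the same sum over all genes with a name in each library, ERBB2 was the highest receptor at 6.93 in wild-type and 8.24 in knockout cells. EGFR followed at 4.20 and 5.57, then ERBB3 at 3.74 and 3.92, and ERBB4 was at 0.011 and 0. The scale between libraries differs here from that of CPM, where ERBB3 was at 21.1 in wild-type and 21.0 in knockout cells. The order was the same in both libraries, and EGFR and ERBB3 were neighbours whose order depended on the length used. With the longest transcript in place of all exons, ERBB3 stood above EGFR in the wild-type library (5.20 and 4.88) and below it in the knockout library (5.46 and 6.47). ERBB2 held 46.6% of the receptor level in wild-type and 46.5% in knockout cells, EGFR 28.2% and 31.4%, and ERBB3 25.1% and 22.1%. Among expressed protein-coding genes the receptors lay near the middle. In the wild-type library 60.1% of these genes were lower than ERBB2 per length, 44.8% lower than EGFR and 41.4% lower than ERBB3.

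**Figure D1:**
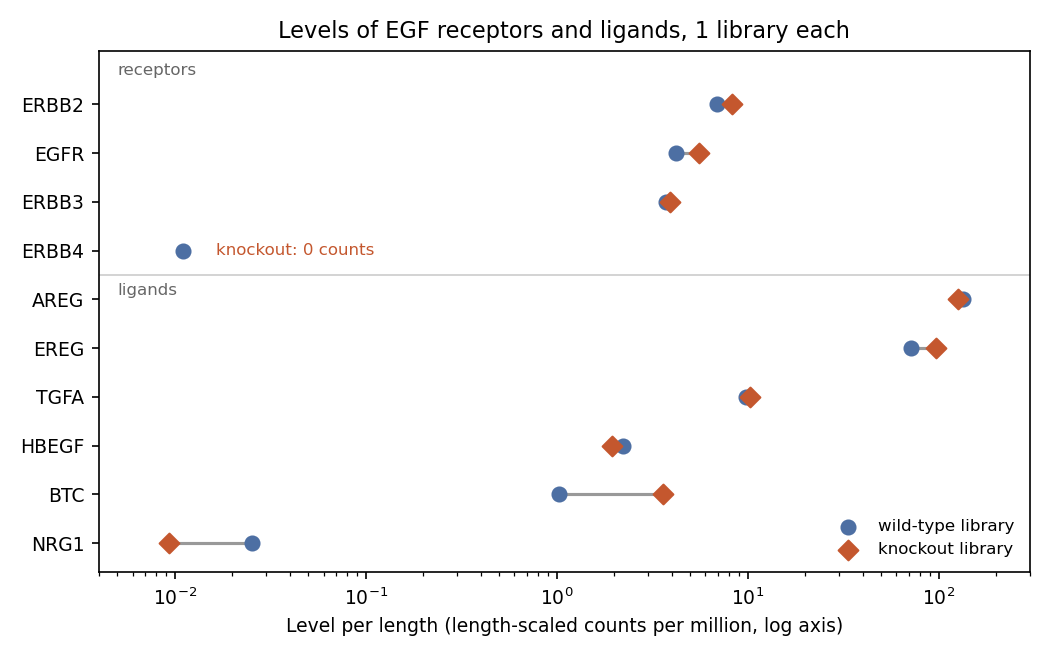
Level per length of each receptor and ligand on a log axis, as counts per length scaled to the same sum, in the wild-type (circles) and knockout (diamonds) library, 1 library each. AREG and EREG lie highest, at 72.0 to 134, BTC has the widest gap between libraries among expressed members (1.03 and 3.60), and ERBB4 had 0 counts in the knockout library.

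The ligands spanned a wider range of levels than the receptors. Amphiregulin was the highest per length, at 134 in wild-type and 126 in knockout cells, and epiregulin was next at 72.0 and 96.7. In the wild-type library, 97.9% of expressed protein-coding genes were lower per length than AREG and 96.2% lower than EREG. TGFA stood at 9.75 and 10.3, HBEGF at 2.21 and 1.94, and BTC at 1.03 and 3.60, so BTC changed places with HBEGF between the libraries. Of the ligand level per length, AREG held 61.2% in wild-type and 52.8% in knockout cells, and EREG 32.9% and 40.6%. BTC held 0.471% and 1.51%, so that even where it was higher it remained a small part of the ligand RNA.

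AREG (ENSG00000109321.6, chromosome 4) had 4637.07 expected counts in wild-type and 3925.19 in knockout cells, or 137.8 and 122.7 CPM. The log2 ratio was -0.17 (-0.23 to -0.11), and 57.6% of expressed genes had a ratio this far from 0 or farther. AREG was the 1 member with fractional counts. Of 3520 rows that were not whole in at least 1 library, 1 completed the AREG values to whole numbers in both libraries, to within 0.005. This was ENSG00000205595.3, which has no name in the annotation used, with 9.93 and 6.81 expected counts and sums of 4647 and 3932. It held 0.214% and 0.173% of these sums, and AREG with that row added had the same log2 ratio of -0.17.

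EREG (ENSG00000124882.3, chromosome 4) had the most counts of any member, 8638 in wild-type and 10467 in knockout cells, or 256.7 and 327.3 CPM. Its log2 ratio was 0.35 (0.31 to 0.39), and 27.8% of expressed genes had a ratio this far from 0 or farther. AREG and EREG, neighbouring genes, thus had ratios on opposite sides of 0. The EREG to AREG count ratio within a library was 1.86 in wild-type and 2.67 in knockout cells, 1.43 times as high (1.36 to 1.51).

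TGFA, a ligand of EGFR (ENSG00000163235.11, chromosome 2), had 1015 and 970 counts, or 30.2 and 30.3 CPM, with a log2 ratio of 0.0081 (-0.12 to 0.14). HBEGF (ENSG00000113070.6, chromosome 5) had 140 and 111 counts, or 4.16 and 3.47 CPM. Its log2 ratio of -0.26 had an interval of -0.63 to 0.11, so a difference was not detectable at this depth. NRG1 (ENSG00000157168.14, chromosome 8) had 6 counts in wild-type and 2 in knockout cells, a ratio of 0.351 with a counting interval of 0.035 to 1.96. Neither library therefore held more than a trace of this ligand of ERBB3 and ERBB4.

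BTC (ENSG00000174808.7, chromosome 4), which binds both EGFR and ERBB4, had 61 counts in wild-type and 192 in knockout cells, or 1.81 and 6.0 CPM. It was 3.31-fold higher in the knockout library (2.47 to 4.49), a log2 ratio of 1.72 (1.31 to 2.17). In RNA from a whole culture, more cells that express a gene and more RNA per cell cannot be told apart. Of all expressed genes, 0.636% had a ratio this far from 0 or farther. BTC was above 1 CPM in both libraries, so it did not enter through its higher library alone. At a stricter minimum of 5 mean CPM it would not have been tested.

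**Figure D2:**
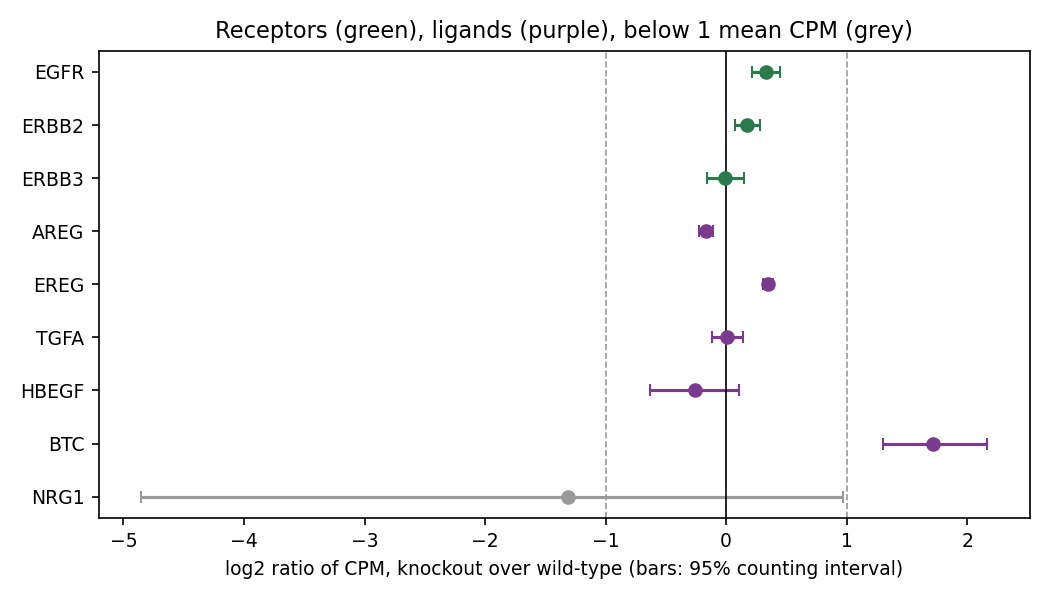
Log2 ratio of CPM, knockout over wild-type, of the receptors (green) and ligands (purple), with NRG1 in grey for a mean below 1 CPM and ERBB4 left out. Bars are 95% intervals of counting error and dashed lines mark 2-fold. BTC alone lies beyond 2-fold with its whole interval (1.31 to 2.17), and the intervals of ERBB3, TGFA, HBEGF and NRG1 cross 0.

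Of the 8 expressed members, 5 (62.5%) had an interval that excluded 0, 4 on the higher side (BTC, EREG, EGFR and ERBB2) and 1 on the lower side (AREG). Over all expressed genes the interval excluded 0 for 51.9%, with 26.4% higher and 25.5% lower, so this share of members is close to that of the table as a whole. The median log2 ratio was 0.092 over the 8 members and 0.0078 over all expressed genes. Summed over the 6 ligands, the counts came to 430.8 CPM in wild-type and 489.9 CPM in knockout cells, a log2 ratio of 0.19 (0.15 to 0.22). Longer transcripts weigh more in this sum, and EREG held 59.6% and 66.8% of the ligand counts. Per length the ligands summed to 219.2 in wild-type and 238.3 in knockout cells. On that scale ERBB3, nearly equal in CPM, was at 3.74 and 3.92.

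**Figure D3:**
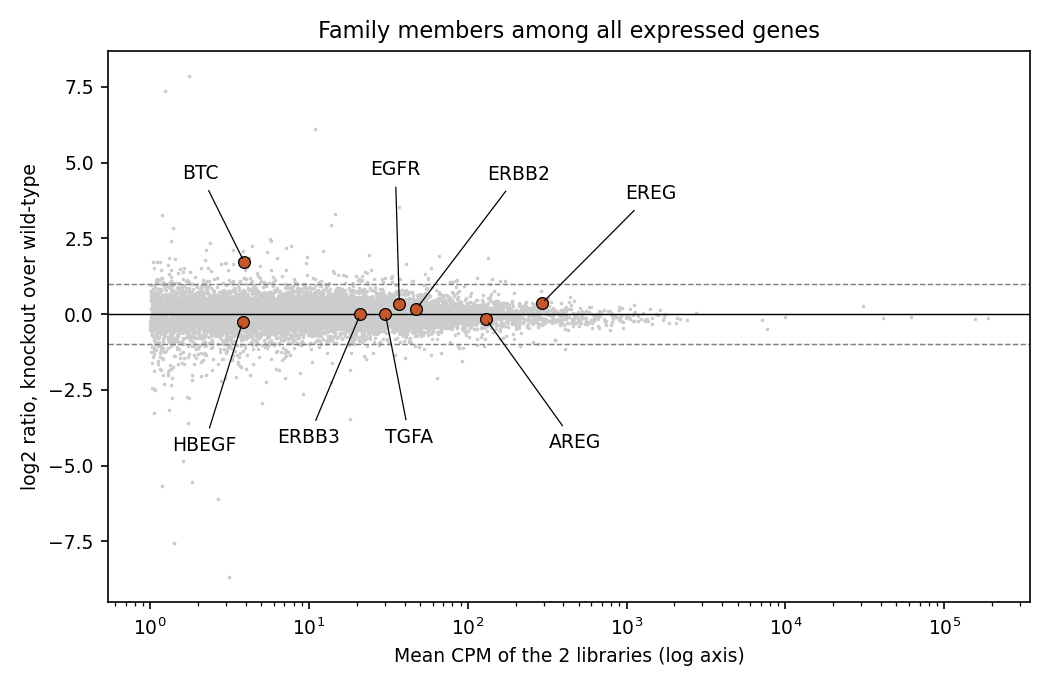
Log2 ratio against the mean CPM of both libraries (log axis) for the 12886 expressed genes (grey) and the 8 expressed members (orange). Dashed lines mark 2-fold. BTC stands at 1.72 and the other 7 members lie between -0.26 and 0.35, within the bulk of the genes.

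In the annotated order of protein-coding genes on chromosome 4, 4 ligand genes of the family follow one another, namely EPGN, EREG, AREG and BTC. EPGN encodes epigen, an EGFR ligand that is not among the 10 members. The windows around their RefSeq start sites (GRCh38.p14, 250 bases before to 50 after the start) are shown because the gene knocked out encodes a factor that binds the letters TGACGTCA, and because the genes lie together but had unlike ratios. The letters TGACG, the core of that element, and their reverse complement CGTCA are in capitals. TGACGTCA is its own reverse complement and contains both. EPGN lies at chr4:74308220-74308519 (plus strand), EREG at chr4:74364895-74365194 (plus), AREG at chr4:74444886-74445185 (plus) and BTC at chr4:74794474-74794773 (minus).
EPGN: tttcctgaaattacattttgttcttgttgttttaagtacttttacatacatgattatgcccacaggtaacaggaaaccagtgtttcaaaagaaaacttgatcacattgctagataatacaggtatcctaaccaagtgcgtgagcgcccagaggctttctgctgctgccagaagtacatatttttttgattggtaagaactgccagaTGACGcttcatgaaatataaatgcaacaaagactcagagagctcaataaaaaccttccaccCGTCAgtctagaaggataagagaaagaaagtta
EREG: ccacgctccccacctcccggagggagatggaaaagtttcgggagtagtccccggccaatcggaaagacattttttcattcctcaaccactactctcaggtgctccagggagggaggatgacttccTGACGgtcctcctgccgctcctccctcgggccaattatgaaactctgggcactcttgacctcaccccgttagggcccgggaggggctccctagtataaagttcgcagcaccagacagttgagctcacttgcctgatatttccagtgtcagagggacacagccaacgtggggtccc
AREG: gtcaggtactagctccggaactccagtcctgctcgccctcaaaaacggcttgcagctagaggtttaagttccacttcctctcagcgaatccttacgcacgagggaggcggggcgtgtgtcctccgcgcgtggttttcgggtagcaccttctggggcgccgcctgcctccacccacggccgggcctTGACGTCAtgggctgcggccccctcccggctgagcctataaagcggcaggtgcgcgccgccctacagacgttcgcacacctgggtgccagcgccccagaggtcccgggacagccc
BTC: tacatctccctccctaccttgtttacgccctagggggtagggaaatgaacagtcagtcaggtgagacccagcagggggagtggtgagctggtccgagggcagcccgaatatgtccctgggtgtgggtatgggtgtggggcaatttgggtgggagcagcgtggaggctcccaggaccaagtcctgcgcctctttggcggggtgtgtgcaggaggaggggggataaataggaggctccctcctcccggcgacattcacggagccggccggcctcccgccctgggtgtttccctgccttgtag

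The AREG window holds the full TGACGTCA, from base -65 to base -58 before the start, and it was the 1 window among those of the members with an entry that did. Of 35116 windows of 300 bases in the RefSeq table, 1.85% hold TGACGTCA and 24.6% hold TGACG on either strand. Windows were found for 8 of the 9 members looked up, 10 windows in all. The core TGACG was found in 3 of these 10, those of AREG, EREG (from base -125) and TGFA (from base -154, in 1 of its windows). In the windows found, BTC, EGFR, ERBB2, ERBB4 and HBEGF had neither, and EPGN had the core on either side of its start. The ERBB2 window was chr17:39687844-39688143, and start sites of a gene outside the windows found were not looked at. The members with the core had log2 ratios of -0.17 (AREG), 0.35 (EREG) and 0.0081 (TGFA). Of the expressed members with neither form in these windows, BTC was at 1.72, EGFR at 0.33, ERBB2 at 0.18 and HBEGF at -0.26. Whether these letters bear on the ratios was not tested. A match of letters is a description of the window, and binding was not measured.

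EPGN had 0 counts in wild-type and 15 in knockout cells. With the wild-type library set at 3 counts and the knockout count taken as measured, it was at least 5.26-fold higher, on a level of 0.469 CPM. The counting interval, which also covers the error of the 15 counts, began at 3.77-fold. The ligand genes at both ends of this row were therefore higher in the knockout library, while EREG and AREG between them differed by less than 1.5-fold. The genes beside the row were less far apart. MTHFD2L, a mitochondrial folate enzyme, had 174 and 178 counts (log2 ratio 0.11), and PARM1, a mucin-like membrane protein, had 425 and 334 (-0.27). Further on, RCHY1 (0.097) and THAP6 (0.25) had intervals that included 0. On the side of EPGN, CXCL2 and CXCL3 had 13 to 24 counts.

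**Figure D4:**
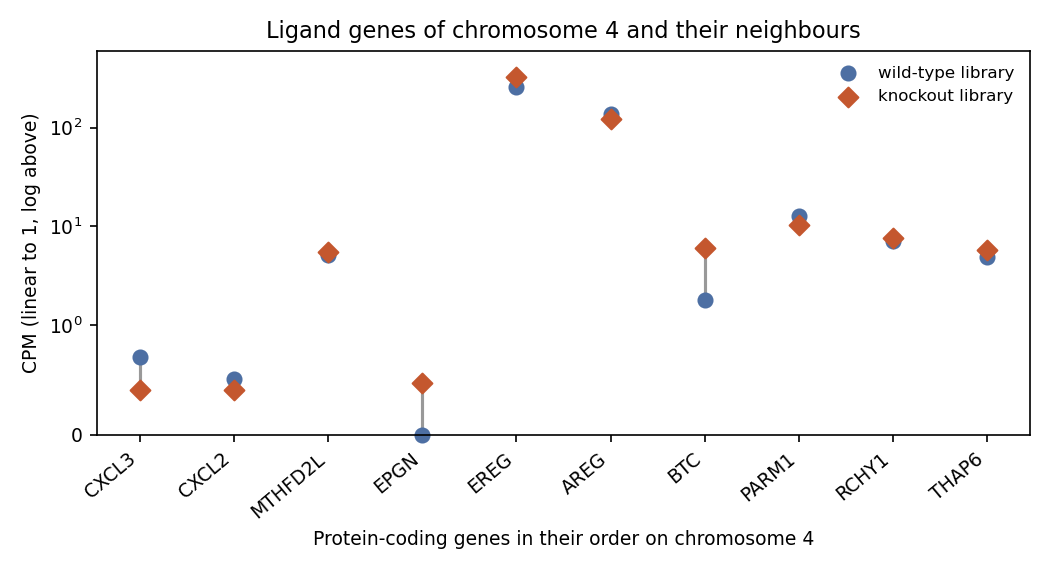
CPM in the wild-type (circles) and knockout (diamonds) library for the ligand genes of chromosome 4 and the 3 protein-coding genes on either side, in annotated order. The axis is linear up to 1 CPM and logarithmic above. EPGN (0 and 0.469) and BTC (1.81 and 6.0) show the widest gaps.

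Genes near the receptors were compared in the same way. Among the 10 nearest expressed protein-coding genes of EGFR the ratios ran from -0.38 to 0.30 with a median of -0.11 and none called. Around ERBB2, on chromosome 17, they had a median of 0.11. Its neighbour PPP1R1B, a phosphatase inhibitor, was called higher (26 and 52 counts, or 0.773 and 1.63 CPM). PPP1R1B passed the minimum of 1 mean CPM through its knockout level alone. GRB7, an adaptor often amplified together with ERBB2, was at 535 and 510 counts (0.0044). MIEN1 and PGAP3 both overlap ERBB2 on the opposite strand. MIEN1 had 839 and 566 counts (-0.49), on the other side of 0 from ERBB2. PGAP3 had 231 and 237 counts (0.11), on the same side as ERBB2, with an interval that included 0. The sources used here do not give whether the counting used the strand of the reads. Near ERBB4, the gene of fibronectin, FN1, was called higher (319 and 741 counts). No neighbour of ERBB3, TGFA, HBEGF or NRG1 was called, and over all expressed genes 2.92% were. The antisense gene EGFR-AS1 had 0 counts in both libraries.

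Of the other ligands of the family, EGF itself had 17 and 13 counts, NRG4 11 and 9, and NRG3 none. NRG2 was the 1 of these 5 ligands that was expressed, with 50 and 37 counts and a log2 ratio of -0.36 (-1.01 to 0.28). Ligands outside the 10 members thus added little RNA in either library.

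Of 20 genes of ligand shedding and maturation, 17 were expressed, 9 above 0 and 8 below, with a median log2 ratio of 0.013. The interval excluded 0 for 9 of the 17, 5 higher and 4 lower, beside 51.9% of all expressed genes. ADAM17, the main sheddase of AREG, EREG, TGFA and HBEGF, had 1026 and 984 counts (0.013), and ADAM10, the main sheddase of BTC, had 2726 and 2365 (-0.13). TIMP3, a secreted inhibitor of metalloproteinases that blocks ADAM17, was the 1 called gene of these 17, beside 2.92% of all expressed genes. It had 65 counts in wild-type and 6 in knockout cells and was 10.3-fold lower (4.48 to 29.1), although it passed the minimum through its wild-type level alone, and at a minimum of 5 CPM it was not tested. ADAM19, another membrane protease, was 1.63-fold higher (2679 and 4144 counts), BACE1 1.40-fold and RHBDF2, a partner of ADAM17, 1.30-fold.

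Among 24 inhibitors and ubiquitin ligases of the receptors, all of them expressed, 17 lay above 0 and 7 below, with a median of 0.16. Over all expressed genes, 6600 of 12886 lay above 0. LRIG1, a membrane protein that promotes the breakdown of EGF receptors, was the 1 called gene of the 24, beside 2.92% of all expressed genes. It had 194 counts in wild-type and 54 in knockout cells, 3.41-fold lower (2.51 to 4.71), and 0.621% of expressed genes had a ratio this far from 0 or farther. At a minimum of 5 CPM, LRIG1 was not tested. The ubiquitin ligase ZNRF1 was 1.75-fold lower (690 and 375 counts) and SOCS3 1.66-fold lower (924 and 528), while CBLB was 1.70-fold higher (99 and 160). ERRFI1, a feedback inhibitor that binds the EGFR kinase, had 8418 and 8065 counts, or 250.2 and 252.2 CPM, a log2 ratio of 0.012.

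On the path from the receptors inward few genes were called, and over all expressed genes the share was also small, at 2.92%. None of 24 expressed genes of receptor endocytosis and sorting was called (median 0.066), which for so few genes is close to that share. The subunits AP2B1 (0.47) and AP2A1 (0.46) of the clathrin adaptor and the sorting nexin SNX1 (0.43) were above 0, and EPS15, an endocytic adaptor, was below (-0.53). None of 24 expressed adaptors was called either (median 0.13), with GRB14 (-0.72), SHC2 (0.42), GAB2 (0.39) and PLCG1 (0.35) farthest from 0. Of these 4, the interval of SHC2 included 0.

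Of 17 genes of the RAS, RAF, MEK and ERK cascade, all expressed, none was called and 10 lay below 0, with a median of -0.079. The kinase genes ARAF (-0.34), MAP2K1 (-0.33) and MAP2K2 (-0.30) were below 0, and NF1, which switches RAS off, was above it (0.40). In the PI3K and AKT group 12 of 17 expressed genes lay above 0, with a median of 0.17. Over all 12886 expressed genes, 6600 lay above 0 and 6286 below, and 2.92% were called. INPP4B, a phosphatase that acts on phosphoinositides, was called at 2.21-fold higher (537 and 1128 counts), and the regulatory subunits PIK3R3 (0.71), PIK3R2 (0.59) and PIK3R1 (0.50) were below 2-fold.

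Genes that respond to ERK had the highest median of the pathway groups, 0.27, with 15 of 22 expressed genes above 0, beside 6600 of 12886 over all expressed genes. Called higher were DUSP6, the ERK phosphatase (3680 and 7456 counts), and HMGA2, a chromatin protein (1806 and 3734). MYC was called lower (4334 and 1889), and EPHA4 had a ratio of -0.89. Of all expressed genes, 1.28% were called higher and 1.64% lower. Coreceptors and partners of the receptors had 14 expressed genes and none called, with a median of 0.0048. The tetraspanins CD82 (-0.75) and CD9 (-0.40) were below 0, and the glypican GPC4 (0.65) and the membrane protein CDCP1 (0.38) above it. HMGA2, DUSP6 and MYC were known to differ between these libraries before this list was used, so they are no independent evidence for it.

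**Figure D5:**
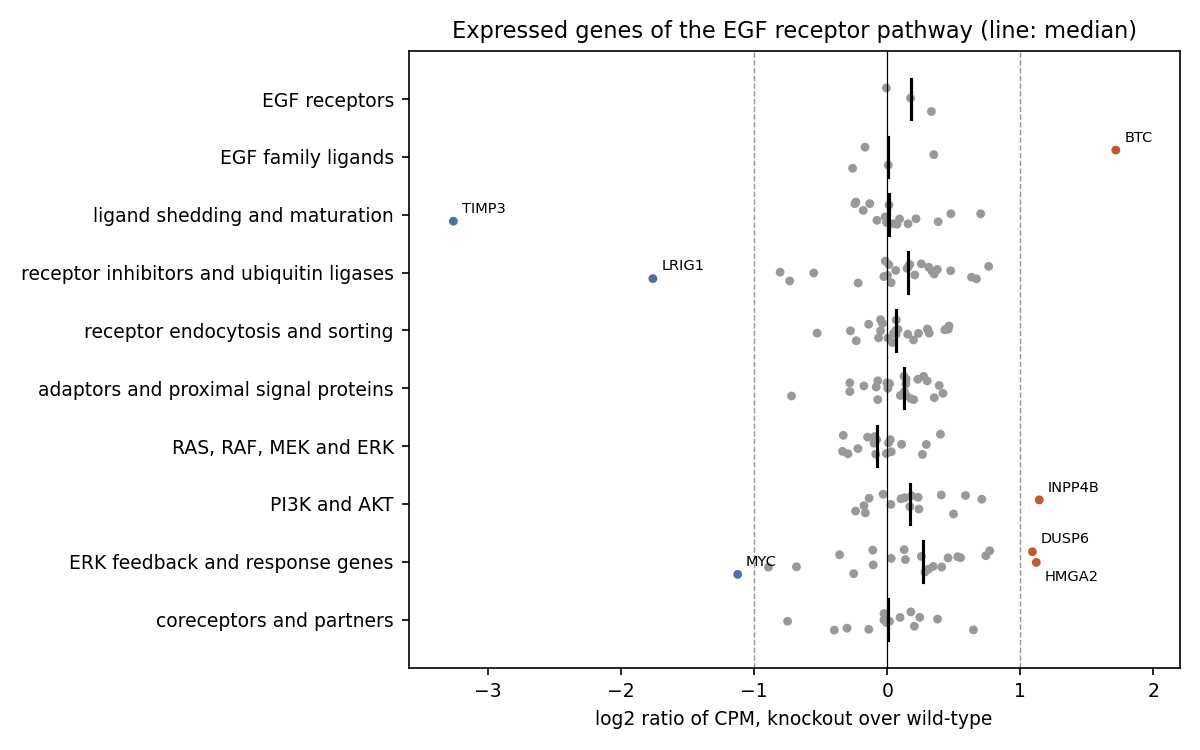
Log2 ratio of CPM, knockout over wild-type, of each expressed gene in the receptors, the ligands and the pathway groups, with a line at each median. Dashed lines mark 2-fold, and called genes are named in orange (higher) or blue (lower). TIMP3 (-3.26) and LRIG1 (-1.76) lie farthest below 0 and BTC (1.72) farthest above, while the medians of the groups plotted run from -0.079 to 0.27. The other ligands of the family, of which only NRG2 was expressed (-0.36), are not plotted.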

How the data were processed

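Strand-specific total RNA libraries depleted of ribosomal RNA were sequenced from 1 wild-type and 1 CREB1 knockout culture. The authors deposited expected counts per gene, and the submitters' processing notes name cutadapt 2.0, STAR 2.4.2a, RSEM 1.2.26 and the build hg19. The sources used here do not give the annotation release, strand setting or filters. Identifiers were named through GENCODE release 29 (GRCh38) without versions, and 52338 of 57820 matched (90.5%). Those with no match held 37.0% of wild-type and 35.2% of knockout counts and stayed in the totals.

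Counts were rounded and scaled with TMM (edgeR 4.0.16, R 4.3.3). Log2 ratios carry a prior count of 0.5, and folds are ratios of CPM. Intervals are exact (Clopper-Pearson, scipy 1.17.1) at 95% and cover counting error only. They treat reads as independent molecules. With 1 library per group no p-value was computed. A gene was called at a mean of at least 1 CPM, a ratio of at least 2-fold and an interval excluding 0. The members and the 9 pathway lists of 176 genes were chosen with earlier results of these data known. Of each list, up to 4 expressed genes farthest from 0 and the called ones were named, and others named, such as ADAM17, ADAM10, ERRFI1 and the low ligands, were chosen after their values were seen. Alternatives were total-count, DESeq2 1.42.0, upper-quartile and protein-coding scaling, a prior count of 2, no minimum or 5 CPM, 1.5-fold, and the longest transcript as length. AREG together with the row sharing its reads was added after seeing the data. A result on 1 gene is not reported here.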

Additional observations from a re-analysis of the deposited data

How the results depend on the processing

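Under total-count, DESeq2, upper-quartile and protein-coding TMM scaling and at 1.5-fold, BTC stayed the called member and 5 intervals excluded 0. The BTC ratio ran from 1.69 (prior count 2) to 1.79 (total counts). Total-count scaling moved AREG to -0.094 and EREG to 0.42, outside their counting intervals. TGFA and ERBB3, whose intervals include 0, changed sign with the scaling, so 4 to 6 of the 8 members lay above 0. The median of all expressed genes ran from -0.013 to 0.081. At a minimum of 5 mean CPM, 0 members were called, since BTC was not tested, and TIMP3 and LRIG1 left their groups, which then had 0 genes called lower. With no minimum, 1 further gene each was called among the other ligands (EPGN, higher), the shedding genes (ADAM8, higher) and the coreceptors and partners (MUC4, lower), all at low counts. AREG with the row that shares its reads was at -0.17. With the longest transcript as length, shares in the wild-type and knockout libraries were 20.9% and 23.4% for EGFR, 56.7% and 56.9% for ERBB2, 22.3% and 19.7% for ERBB3, 63.1% and 54.8% for AREG, and 31.6% and 39.3% for EREG. Depth limits ERBB4, NRG1 and EPGN, with 0 to 15 counts.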
